A study of Mus musculus with 8 samples.

Results

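The proteasome genes of mouse small intestinal epithelium were followed in RNA sequencing of cells sorted for CD24, a surface glycoprotein carried by crypt cells. Rows were taken where the gene symbol began with Psma to Psmg followed by a digit, leaving out the interferon-inducible Psmb8, Psmb9, Psmb10, Psme1 and Psme2. This gave 48 of 37620 gene rows, of which 42 passed the filter on low counts. The 48 rows held 14 subunits of the 20S core, 17 of the 19S cap, 4 assembly chaperones of the core, 3 of the cap, 3 activators or inhibitors, 2 subunits known from other tissues, and 5 rows that match by name alone.

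CD24Mid cells had intermediate CD24 (the submitters also call them CD24low), and CD24Neg cells had none. From both populations, leukocytes positive for CD45 and cells binding the lectin Ulex europaeus agglutinin I, which marks secretory cells, had been removed, and each was sequenced in 4 libraries described as biological replicates, numbered 1, 3, 5 and 7 for CD24Mid and 2, 4, 6 and 8 for CD24Neg. The series was made to study hydroxymethylcytosine during intestinal differentiation. The sources used here give no genotype, strain, age or pooling of animals, so p-values measure the spread between these libraries.

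The proteasome degrades proteins tagged with ubiquitin. Its 20S core is a barrel of alpha outer rings and beta inner rings, in which Psmb6, Psmb7 and Psmb5 carry the caspase-like, trypsin-like and chymotrypsin-like sites. The 19S cap binds the chain of ubiquitin, removes it, and unfolds the protein with a ring of ATPases (Psmc1 to Psmc6). Dedicated chaperones, Psmg1 to Psmg4 with Pomp for the core and Psmd5, Psmd9 and Psmd10 for the cap, guide assembly and are not part of the finished particle. In fast-renewing epithelia such as the gut, proteasomes also remove the cyclins and other short-lived proteins of dividing cells.

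To show the letters upstream of the genes the results turn on, 4 promoters are printed 5′ to 3′ on the gene's strand, each as the 250 bases before the annotated start (RefSeq, GRCm38.p6). Psmg1, a core chaperone, and Psme3, a nuclear activator, were higher in CD24Mid, Psmb5 is a catalytic subunit whose difference did not pass, and Psmd4 was the only row called higher in CD24Neg. Psmg1 lies at chr16:95990961-95991210 on the minus strand, Psme3 at chr11:101315963-101316212 on the plus strand, Psmb5 at chr14:54617996-54618245 on the minus strand and Psmd4 at chr3:95042615-95042864 on the minus strand. Capitals mark 4 searched motifs on either strand: the antioxidant response core TGACNNNGC, read by Nfe2l1 and Nfe2l2 with small Maf partners, the ETS core CCGGAAG, the E-box CACGTG and the CCAAT box.
Psmg1: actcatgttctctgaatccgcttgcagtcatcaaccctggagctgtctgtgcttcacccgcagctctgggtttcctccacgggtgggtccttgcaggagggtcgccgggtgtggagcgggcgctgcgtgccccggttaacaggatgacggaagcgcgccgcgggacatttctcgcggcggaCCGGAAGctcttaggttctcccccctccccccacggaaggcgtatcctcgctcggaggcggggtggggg
Psme3: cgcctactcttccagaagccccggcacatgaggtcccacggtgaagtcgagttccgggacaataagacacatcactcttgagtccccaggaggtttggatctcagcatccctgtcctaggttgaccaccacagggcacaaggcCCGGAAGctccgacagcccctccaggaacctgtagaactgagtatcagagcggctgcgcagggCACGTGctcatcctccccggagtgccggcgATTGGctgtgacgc
Psmb5: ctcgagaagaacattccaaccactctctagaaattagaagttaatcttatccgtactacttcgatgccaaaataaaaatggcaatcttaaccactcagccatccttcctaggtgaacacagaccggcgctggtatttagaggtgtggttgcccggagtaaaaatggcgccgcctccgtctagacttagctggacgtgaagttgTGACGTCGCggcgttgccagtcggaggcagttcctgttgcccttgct
Psmd4: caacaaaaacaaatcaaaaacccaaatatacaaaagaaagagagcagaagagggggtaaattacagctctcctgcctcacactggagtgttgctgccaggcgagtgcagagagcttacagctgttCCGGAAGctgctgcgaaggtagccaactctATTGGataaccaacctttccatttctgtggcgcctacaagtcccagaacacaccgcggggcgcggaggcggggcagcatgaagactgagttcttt
The ETS core stood in 13 of 36 windows of the subunit, chaperone and activator genes (36.1%, 34 genes with a window), against 6.91% of all 32851 promoter windows of the same length. The antioxidant response core stood in 5 of the 36 (13.9%, against 10.2% of all windows), the E-box in 3 (8.33% against 6.02%) and the CCAAT box in 12 (33.3% against 33.9%). The motifs do not overlap each other in the 4 printed sequences. Genes with the ETS core included Psmg1, Psme3 and Psmd2, which were higher in CD24Mid, Psmc1 and Psme4, which did not pass, and Psmd4, which was lower in CD24Mid. These matches describe letters in a window and were not tested.

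Facts of the whole series frame these values. Reads unique to 1 gene numbered 15473071 to 17537818 in CD24Mid libraries and 11340782 to 18928233 in CD24Neg libraries. Mitochondrially encoded genes took 8.03% to 9.17% of them in CD24Mid and 27.7% to 37.0% in CD24Neg. Crypt stem markers summed to 3093 to 4083 CPM (reads scaled to a common library size by the trimmed mean of M-values, TMM) in CD24Mid and 123 to 356 CPM in CD24Neg, with all 6 higher in CD24Mid. Enterocyte markers summed to 834 to 1350 CPM in CD24Mid and 23567 to 41168 CPM in CD24Neg, with all 7 higher in CD24Neg. The 6 goblet markers, a type the lectin should remove, summed to 3111 to 4469 CPM in CD24Mid and 9441 to 26470 CPM in CD24Neg. Of these, 4 were higher in CD24Neg, while Spdef and Agr2 did not pass (log2 fold changes, CD24Mid over CD24Neg, of -0.23 and 0.37).

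With TMM scaling, the chaperones of 20S assembly had the largest differences among the proteasome genes proper, and the finished particle's subunits differed little. Of the 42 rows tested, edgeR (adjusted p under 0.05) called 17 higher in CD24Mid and 1 higher in CD24Neg, against 35.5% and 34.3% of all genes tested, so the share toward CD24Mid was near the background (35.5% of 12840 genes) and that toward CD24Neg far below it. The 42 rows had a median log2 fold change, CD24Mid over CD24Neg, of 0.20, against 0.02 over all genes tested. Fold changes of the 31 core and cap subunits were closely grouped, with a middle range from -0.0024 to 0.28 (quartiles), against -0.71 to 0.79 for all genes. CD24Mid lay wholly above CD24Neg in 14 rows and wholly below it in 1, against 33.0% and 31.4% of all genes. On unscaled totals all 31 core and cap subunits were called higher in CD24Mid, beside 69.8% of all genes. Their median log2 fold change was then 1.07, against 0.96 over all genes. In bulk samples such as these, fewer cells of a type and less RNA per cell cannot be told apart.

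**Figure D1:**
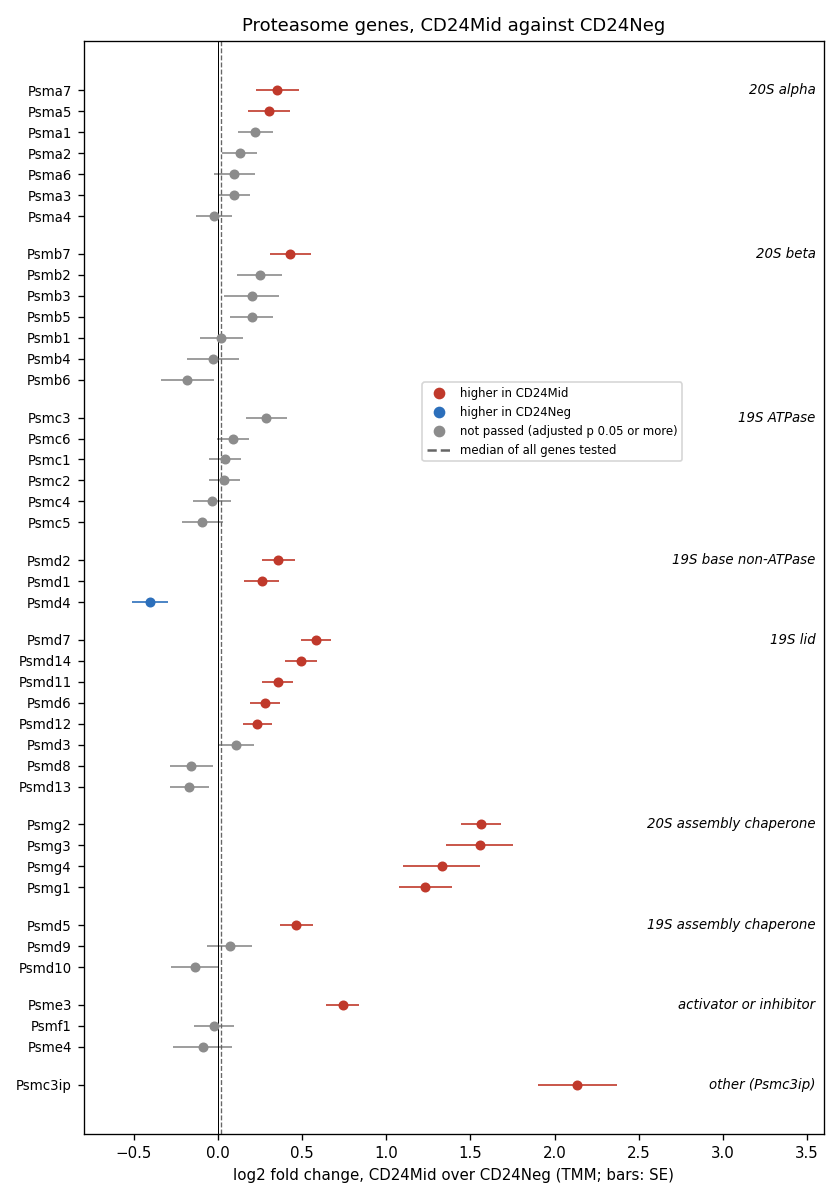
Log2 fold change, CD24Mid over CD24Neg, of the 42 tested rows by subcomplex, with the standard error as bars and the median of all genes as a dashed line. The core chaperones Psmg1 to Psmg4 lie between 1.23 and 1.56, core and cap subunits lie between -0.41 and 0.58, and Psmd4 alone is called in the opposite direction.

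Psmg1 to Psmg4 encode PAC1 to PAC4, which pair up to build the alpha ring and keep it from misassembling. All 4 were higher in CD24Mid, by 2.35-fold to 2.96-fold, beside 35.5% of all genes called in that direction. Psmg2 (ENSMUSG00000024537) stood at 23.1, 25.6, 22.7 and 22.1 CPM in CD24Mid and 8.11, 7.64, 7.12 and 8.83 CPM in CD24Neg. The groups lie far apart and each is tight, which gave a log2 fold change of 1.56 ± 0.12 (SE, edgeR adjusted p = 8.93e-07). Its partner Psmg1 (ENSMUSG00000022913) stood at 28.3, 29.4, 23.3 and 23.7 CPM in CD24Mid and 13.0, 11.2, 8.28 and 12.4 CPM in CD24Neg (log2 fold change 1.23 ± 0.16 SE, edgeR adjusted p = 4.00e-05). Its lowest CD24Mid library was well above the highest CD24Neg library.

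Psmg3 and Psmg4 form the other pair of core chaperones. Psmg3 (ENSMUSG00000029551) had 20.02, 21.4, 16.9 and 16.1 CPM in CD24Mid and 8.99, 6.37, 4.58 and 5.74 CPM in CD24Neg (log2 fold change 1.55 ± 0.20 SE, edgeR adjusted p = 3.98e-05). Psmg4 (ENSMUSG00000071451), the least abundant by reads, had 13.0, 12.8, 9.54 and 9.57 CPM in CD24Mid and 6.21, 4.40, 2.90 and 4.64 CPM in CD24Neg (log2 fold change 1.33 ± 0.23 SE, edgeR adjusted p = 0.00036). For neither gene did the groups overlap, and CD24Mid replicates 1 and 3 lay above replicates 5 and 7. Markers of dividing cells moved the same way, with all 7 higher and sums of 1272 to 1880 CPM in CD24Mid against 146 to 328 CPM in CD24Neg, and their part in the chaperone difference was not tested.

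**Figure D2:**
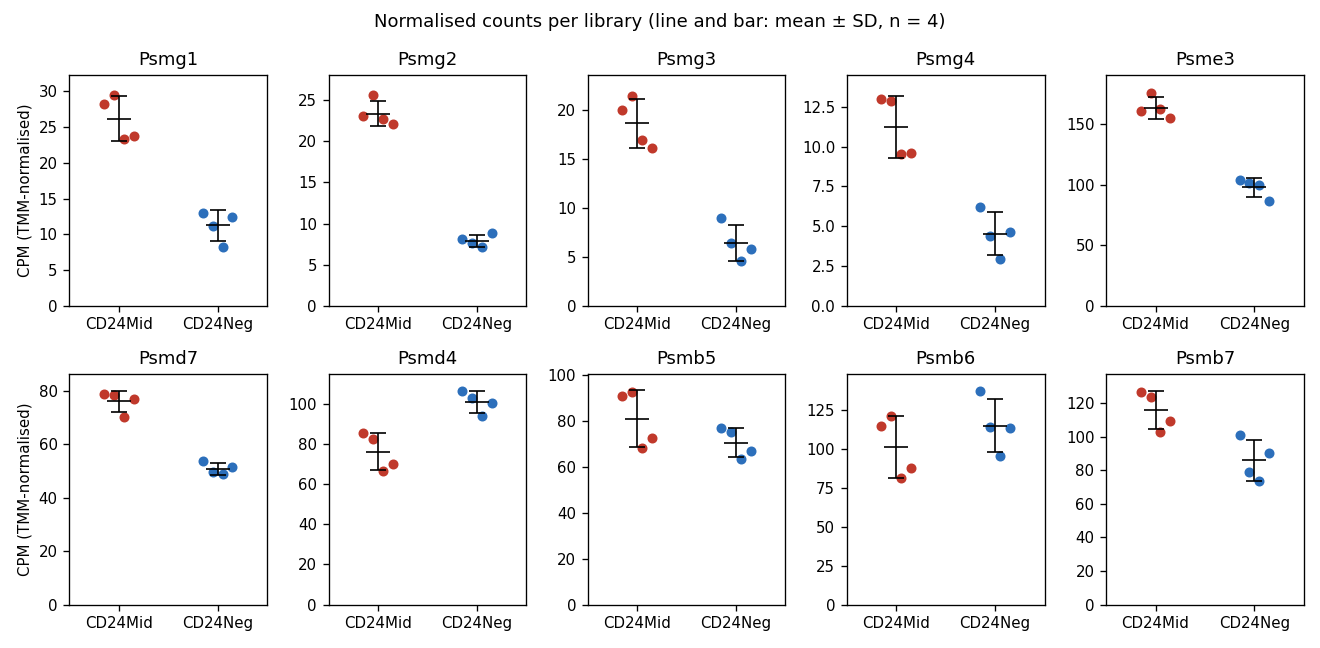
Normalised counts (CPM) of 10 proteasome genes in each library, CD24Mid left and CD24Neg right, with the mean and SD (n = 4). Psmg1 to Psmg4, Psme3, Psmd7 and Psmb7 lie higher in all CD24Mid libraries, Psmd4 lies lower in all of them, and Psmb5 and Psmb6 overlap.

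A proportion formed within a library does not depend on the scaling between libraries. On levels per length (fragments per kilobase of effective length scaled to mapped fragments, FPKM, from the deposited log estimates), the summed level of Psmg1 to Psmg4 was 6.35%, 6.73%, 6.99% and 6.21% of the summed level of the 14 core subunits in CD24Mid, and 2.83%, 2.72%, 2.30% and 2.85% in CD24Neg. The CD24Mid libraries all lay far above every CD24Neg library. Pomp, the maturation factor that acts after these chaperones and is degraded by the finished core, ran the other way, at 6.82%, 6.45%, 6.25% and 7.01% in CD24Mid and 10.8%, 11.8%, 12.7% and 11.7% in CD24Neg. Counts of Pomp (ENSMUSG00000029649) were 76.3, 71.3, 53.0 and 66.8 CPM in CD24Mid and 117, 107, 104 and 108 CPM in CD24Neg, a log2 fold change of -0.70 ± 0.12 (SE, edgeR adjusted p = 0.00034) that turned to 0.24 on unscaled totals.

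**Figure D3:**
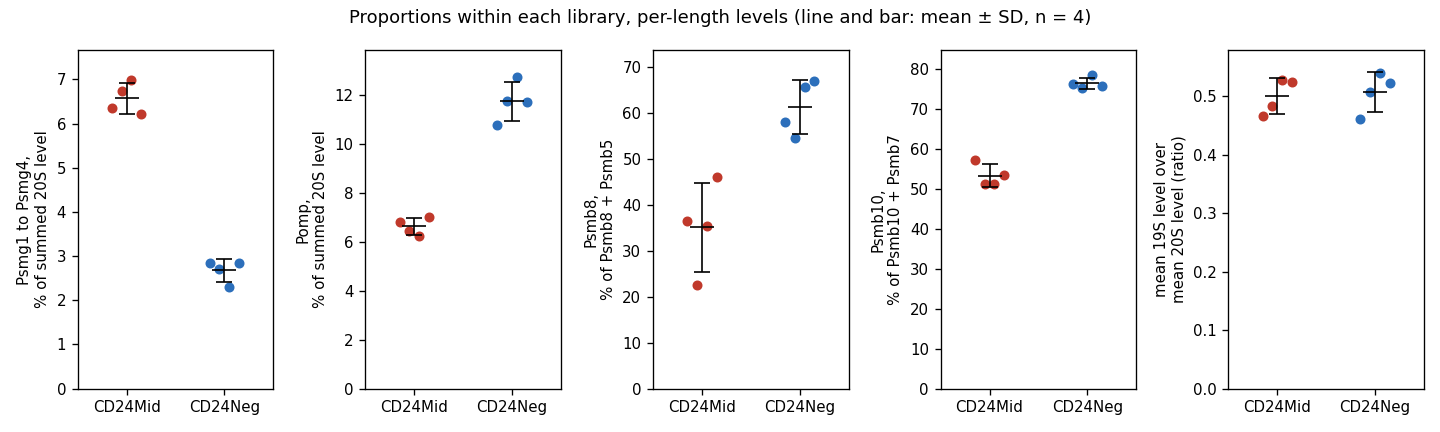
Proportions of per-length levels within each library, CD24Mid left and CD24Neg right, with the mean and SD (n = 4). Core chaperones are a larger part of the core level in CD24Mid, Pomp, Psmb8 and Psmb10 are larger in CD24Neg, and the ratio of cap to core overlaps around 0.50.

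Among the 7 alpha subunits, which form the outer rings and the gate of the core, 2 were higher in CD24Mid and 0 in CD24Neg. Of all genes, 35.5% and 34.3% were called in these directions. The other 5 alpha subunits did not pass, and the median log2 fold change of the 7 was 0.13. Psma7 (ENSMUSG00000027566, alpha4) had the highest fold change of the ring, with 140, 140, 109 and 125 CPM in CD24Mid and 122, 91.0, 89.7 and 100 CPM in CD24Neg (log2 fold change 0.35 ± 0.13 SE, edgeR adjusted p = 0.031). Both groups overlap in Psma7, and the adjusted p passed 0.05 when CD24Mid replicate 1 (0.071) or 3 (0.078) was left out. Psma4 (ENSMUSG00000032301, alpha3) had the lowest, with 137, 122, 109 and 119 CPM in CD24Mid and 133, 113, 127 and 122 CPM in CD24Neg (log2 fold change -0.02 ± 0.10 SE, edgeR adjusted p = 0.84). Psma5 (alpha5) was the other gene called, at 64.6 ± 7.30 CPM in CD24Mid, against 52.4 ± 7.01 CPM in CD24Neg (SD, n = 4 each, edgeR adjusted p = 0.047), and this was lost without CD24Mid replicates 1, 3 or 7 (adjusted p = 0.11, 0.11 and 0.059). Psma1, Psma2, Psma3 and Psma6 had log2 fold changes of 0.10 to 0.22. Estimated reads including shared ones were 2.10 times the unique reads for Psma3 and 1.59 times for Psma5, so their unique counts are uncertain.

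Of the 7 beta subunits, 1 was higher in CD24Mid and 0 in CD24Neg, beside 35.5% and 34.3% of all genes. The other 6 did not pass, and the median log2 fold change of the 7 was 0.20. Log2 fold changes of the 3 catalytic subunits ran from -0.18 to 0.43, and differences among them were not tested. Psmb7 (ENSMUSG00000026750, beta2) had 127, 123, 103 and 109 CPM in CD24Mid and 101, 79.2, 73.4 and 90.3 CPM in CD24Neg, with no overlap (log2 fold change 0.43 ± 0.12 SE, edgeR adjusted p = 0.0094). Psmb5 (ENSMUSG00000022193, beta5) had 90.7, 92.3, 68.1 and 72.3 CPM in CD24Mid and 76.8, 75.0, 63.4 and 66.8 CPM in CD24Neg, which overlap (log2 fold change 0.20 ± 0.13 SE, edgeR adjusted p = 0.18). Psmb6 (ENSMUSG00000018286, beta1) had 115, 121, 81.3 and 87.9 CPM in CD24Mid and 137, 114, 95.9 and 113 CPM in CD24Neg, which also overlap (log2 fold change -0.18 ± 0.16 SE, edgeR adjusted p = 0.31). Relative to the mean level of the 31 core and cap subunits in the same library, Psmb6 stood at 159% to 195% in CD24Mid and 199% to 229% in CD24Neg, and Psmb7 at 127% to 133% in CD24Mid and 97.4% to 108% in CD24Neg. On that scale Psmb7 lay wholly above in CD24Mid and Psmb6 wholly below, beside 27.1% and 33.3% of 12604 genes. The structural subunits Psmb1, Psmb2, Psmb3 and Psmb4 had log2 fold changes from -0.03 to 0.25, and unique counts of Psmb3 are uncertain, with estimated reads 1.43 times as many.

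None of the 6 ATPases of the cap's ring passed (0 in each direction by edgeR, against 35.5% and 34.3% of all genes). Their log2 fold changes were -0.09 to 0.29, with a median of 0.04. However, Psmc3 passed with DESeq2 (at an unadjusted p under 0.05 edgeR gave 1 of the 6, Psmc3). Psmc3 (ENSMUSG00000002102, Rpt5) had 144, 148, 113 and 130 CPM in CD24Mid and 123, 113, 95.5 and 108 CPM in CD24Neg (log2 fold change 0.29 ± 0.12 SE, edgeR adjusted p = 0.051, DESeq2 adjusted p = 0.034). Psmc5 (ENSMUSG00000020708, Rpt6) had 101, 106, 78.8 and 89.8 CPM in CD24Mid and 112, 90.5, 91.4 and 107 CPM in CD24Neg (log2 fold change -0.09 ± 0.12 SE, edgeR adjusted p = 0.52). Both genes overlap between the groups.

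The 3 non-ATPase subunits of the cap's base diverged. Psmd2 (ENSMUSG00000006998, Rpn1, the docking scaffold for ubiquitin shuttles) had 197, 202, 174 and 195 CPM in CD24Mid and 159, 146, 137 and 156 CPM in CD24Neg (log2 fold change 0.36 ± 0.10 SE, edgeR adjusted p = 0.0075). Its groups do not overlap. Psmd4 (ENSMUSG00000005625, Rpn10, a ubiquitin receptor of the cap) had 85.7, 82.6, 66.8 and 70.4 CPM in CD24Mid and 107, 103, 94.1 and 100 CPM in CD24Neg (log2 fold change -0.41 ± 0.11 SE, edgeR adjusted p = 0.0061). Every CD24Mid library was below every CD24Neg library. As a share of the mean core and cap subunit level, Psmd4 stood at 76.5%, 75.4%, 75.6% and 72.6% in CD24Mid and 103%, 112%, 109% and 108% in CD24Neg, a separation that holds whatever the scaling. The call on counts did not: with upper-quartile scaling the log2 fold change was -0.18 (adjusted p = 0.16), and on unscaled totals it turned to 0.53. The scaffold Psmd1 (Rpn2) was called higher in CD24Mid (112 ± 9.89 against 93.8 ± 8.63 CPM, SD, n = 4 each, edgeR adjusted p = 0.048) but lost the call in 5 of 8 fits that left out 1 library (CD24Mid replicates 3, 5 and 7 and CD24Neg replicates 4 and 6, adjusted p = 0.062 to 0.13).

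In the lid, which cuts ubiquitin chains off the substrate, 5 of 8 subunits were higher in CD24Mid, 0 in CD24Neg and 3 did not pass (median log2 fold change 0.26), beside 35.5% and 34.3% of all genes. The deubiquitinase Psmd14 (Rpn11) and its partner Psmd7 (Rpn8), which together form the cutting module, led them. Psmd7 (ENSMUSG00000039067) had 78.9, 78.3, 70.4 and 76.8 CPM in CD24Mid and 53.6, 49.5, 48.7 and 51.3 CPM in CD24Neg (log2 fold change 0.58 ± 0.09 SE, edgeR adjusted p = 0.00014). Psmd14 averaged 67.3 ± 3.69 CPM in CD24Mid, against 47.9 ± 3.54 CPM in CD24Neg (SD, n = 4 each, log2 fold change 0.49, edgeR adjusted p = 0.00074). Psmd11, Psmd6 and Psmd12 were higher in CD24Mid by 1.18-fold to 1.28-fold, and the groups overlap in none of the 5 (33.0% of all genes lay wholly above in CD24Mid). The call for Psmd12 was lost without CD24Mid replicates 1, 3 or 7 (adjusted p = 0.074, 0.072 and 0.054). Psmd13 (ENSMUSG00000025487, Rpn9) had the lowest fold change, with 81.3, 89.5, 62.7 and 76.0 CPM in CD24Mid and 89.9, 87.0, 81.6 and 89.8 CPM in CD24Neg (log2 fold change -0.17 ± 0.12 SE, edgeR adjusted p = 0.21). Psmd3 and Psmd8 did not pass, with log2 fold changes of 0.11 and -0.16.

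Cap chaperones did not follow the core chaperones as a group. Of the 3, which hold ATPases until the ring closes, Psmd5 (ENSMUSG00000026869) had 27.9, 31.5, 28.0 and 29.0 CPM in CD24Mid and 21.2, 22.1, 19.8 and 21.3 CPM in CD24Neg (log2 fold change 0.47 ± 0.10 SE, edgeR adjusted p = 0.0013). Psmd9 (ENSMUSG00000029440) had 20.3, 20.7, 16.4 and 17.5 CPM in CD24Mid and 21.5, 16.7, 16.6 and 16.7 CPM in CD24Neg (log2 fold change 0.07 ± 0.13 SE, edgeR adjusted p = 0.66). Psmd10 (ENSMUSG00000031429, gankyrin) had 18.3, 20.4, 16.0 and 16.5 CPM in CD24Mid and 24.3, 16.2, 19.5 and 18.2 CPM in CD24Neg (log2 fold change -0.14 ± 0.14 SE, edgeR adjusted p = 0.41). Of the 3, Psmd5 alone was called and separated the groups, while Psmd9 and Psmd10 overlap. Among all genes, 35.5% were called higher in CD24Mid and 33.0% lay wholly above in CD24Mid, so such a result is common in these data.

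Of the activators and inhibitors, Psme3 alone was called, and it was higher in CD24Mid, as were 35.5% of all genes. Psme3 (ENSMUSG00000078652) encodes PA28 gamma, a nuclear ring that opens the core for substrates without ubiquitin, and had 161, 175, 162 and 155 CPM in CD24Mid and 104, 101, 99.7 and 86.3 CPM in CD24Neg (log2 fold change 0.74 ± 0.10 SE, edgeR adjusted p = 5.20e-05). All CD24Mid libraries lay above all CD24Neg libraries. Psme4 (ENSMUSG00000040850), which encodes the nuclear activator PA200, had 71.6, 87.3, 109 and 117 CPM in CD24Mid and 76.9, 102, 116 and 115 CPM in CD24Neg (log2 fold change -0.09 ± 0.18 SE, edgeR adjusted p = 0.66). Psmf1 (ENSMUSG00000032869), which encodes the regulator PI31, had 36.6, 32.9, 28.5 and 30.1 CPM in CD24Mid and 38.4, 31.6, 30.9 and 29.5 CPM in CD24Neg (log2 fold change -0.02 ± 0.12 SE, edgeR adjusted p = 0.87). For Psme4 the libraries numbered 1 to 4 were lower than those numbered 5 to 8 in each group.

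The other rows that the names bring in were mostly silent. Psmc3ip (ENSMUSG00000019303), a cofactor of meiotic recombination and not a proteasome subunit, had 74, 89, 87 and 95 reads in CD24Mid and 6, 9, 13 and 6 reads in CD24Neg, and its log2 fold change of 2.14 ± 0.24 (SE, edgeR adjusted p = 1.28e-05) was the largest of the 42. The testis subunit Psma8 had 0, 0, 2 and 1 reads in CD24Mid and 0 in each CD24Neg library, and the thymus subunit Psmb11 had 0, 0, 3 and 3 reads in CD24Mid and 1, 1, 0 and 0 in CD24Neg. Psme2b had 1 to 9 reads in CD24Mid and 1 to 2 in CD24Neg. The pseudogene rows Psmb5-ps and Psmb6-ps had 0 reads in all 8 libraries, and Psmb7-ps2 had 1 read in all. At these depths a gene without reads was limited to between 0.121 and 0.145 CPM in CD24Mid and 0.218 and 0.38 CPM in CD24Neg (3 reads, counting error only).

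Levels per length kept a similar order in both groups. In CD24Mid the 31 core and cap subunits ran from 246 ± 35.8 (Psmb4) to 49.8 ± 1.69 (Psmd12) FPKM, and in CD24Neg from 136 ± 16.6 (Psmb6) to 21.4 ± 0.92 (Psmd12, SD, n = 4 each). These levels are per mapped fragment without TMM scaling, so the gap between groups is that of unscaled totals. Of the 14 core subunits 12 held the first 12 places in CD24Mid, and Psma2 was low, in place 30 of 31. Neighbours in the order, such as Psmb4 and Psma7 (246 ± 35.8 and 244 ± 21.9 in CD24Mid), did not differ beyond their spread. Pearson's r of the log levels between groups was 0.957 across the 31 genes, which share libraries and lengths and are not independent replicates. The largest changes of place were those of Psmd4, in place 20 in CD24Mid and 12 in CD24Neg, and Psmb7, in place 9 in CD24Mid and 15 in CD24Neg.

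**Figure D4:**
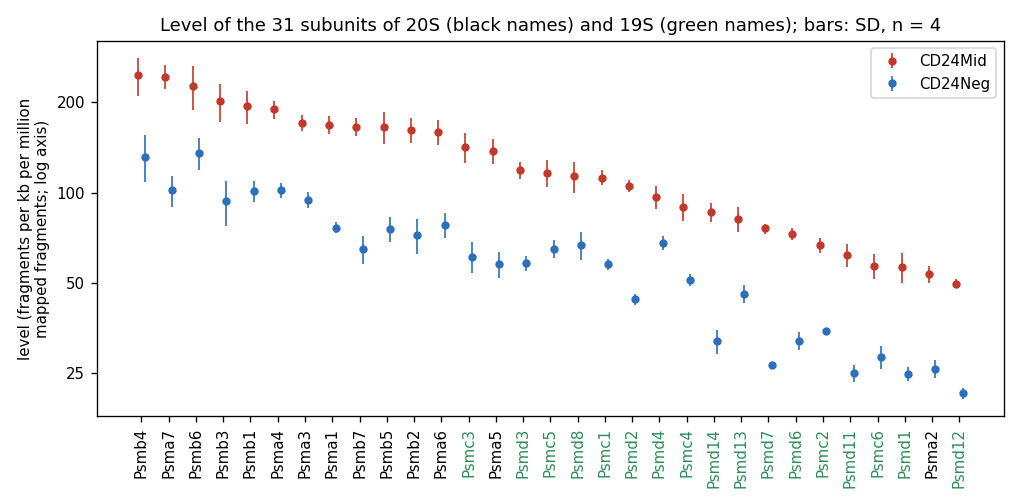
Level per length (log axis) of the 31 core and cap subunits in order of CD24Mid, as the mean and SD over 4 libraries, CD24Mid in red and CD24Neg in blue. Core subunits (black names) fill the upper places from 246 downward, except Psma5 in place 14 and Psma2 in place 30. Cap subunits (green names) fill the other lower places.

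The balance of cap and core did not separate the groups. The mean level of the 17 cap subunits over that of the 14 core subunits was 0.465, 0.483, 0.528 and 0.524 in CD24Mid and 0.460, 0.508, 0.539 and 0.522 in CD24Neg. The beta subunits took 35.7%, 35.5%, 32.6% and 32.4% of the summed level in CD24Mid and 36.7%, 35.4%, 32.4% and 33.3% in CD24Neg. Both quantities split the libraries numbered 1 to 4 from those numbered 5 to 8 within each group more than they split the groups, and no label says what the numbers mark. With that split as a term, a fit chosen after seeing the data, edgeR called 21 rows higher and 1 lower in CD24Mid, and the 4 additional rows were Psma1, Psmb2, Psmb5 and Psmc3. Set against the mean core and cap level in the same library, 8 of the 31 subunits lay wholly above in CD24Mid and 5 wholly below, against 27.1% and 33.3% of 12604 genes treated in the same way. The 8 were Psma5, Psma7, Psmb2, Psmb7, Psmc3, Psmd2, Psmd7 and Psmd14, and the 5 were Psmb6, Psmc4, Psmc5, Psmd4 and Psmd8.

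The size of the shared difference rests on how libraries are scaled. TMM gave 17 rows higher and 1 lower in CD24Mid. With upper-quartile scaling the counts were 29 and 0, against 43.6% and 27.3% of all genes. On totals without mitochondrially encoded genes they were 39 and 0, against 55.0% and 20.1%, and on unscaled totals 42 and 0, against 69.8% and 12.9%. Across TMM and these 3 scalings, all genes had medians of 0.02, 0.24, 0.53 and 0.96 on the log2 scale and the 42 rows had 0.20, 0.42, 0.71 and 1.14. A change of scaling shifts every gene alike, so the gap of 0.18 between these medians with TMM is carried into the other scalings by construction. In reads, the 48 rows took 0.434% to 0.508% of all unique reads in CD24Mid and 0.208% to 0.234% in CD24Neg, or 0.472% to 0.559% and 0.290% to 0.360% of reads outside the mitochondrial genes.

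**Figure D5:**
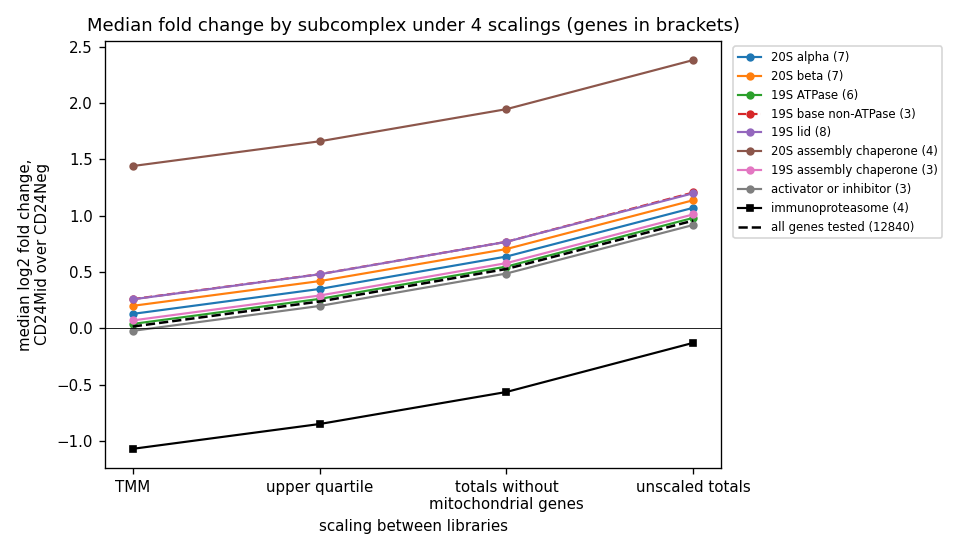
Median log2 fold change, CD24Mid over CD24Neg, of each proteasome subcomplex and of all 12840 genes tested (dashed) under 4 scalings between libraries. All lines move up together from TMM to unscaled totals, the core chaperones stay above and the immunoproteasome genes stay below the rest.

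The interferon-inducible counterparts left out of the rows went the other way. Psmb8, which replaces Psmb5 in the immunoproteasome, had 72.9, 38.2, 50.1 and 83.6 CPM in CD24Mid and 172, 133, 182 and 201 CPM in CD24Neg (log2 fold change -1.49 ± 0.23 SE, edgeR adjusted p = 0.00017). All 4 such genes with a row (Psmb8, Psmb10, Psme1 and Psme2) were higher in CD24Neg, beside 34.3% of all genes, with a median log2 fold change of -1.07. On unscaled totals 1 was higher in CD24Neg and 1 in CD24Mid, beside 12.9% and 69.8% of all genes. The call for Psme1 was lost with upper-quartile scaling (adjusted p = 0.14) and turned to 0.48 on unscaled totals, and the counts of Psme2 are uncertain, with estimated reads 1.94 times the unique reads. Within a library Psmb8 was 36.5%, 22.5%, 35.3% and 46.1% of the level of Psmb8 plus Psmb5 in CD24Mid and 58.1%, 54.7%, 65.7% and 66.9% in CD24Neg, and Psmb10 was 51.3% to 57.4% of Psmb10 plus Psmb7 in CD24Mid and 75.4% to 78.6% in CD24Neg. Neither proportion overlaps between the groups (exact two-sided permutation test, p = 0.029 for each, the smallest that 4 against 4 can give, and 0.029 adjusted over the 3 proportions tested). Psme1 plus Psme2 over Psme3 was 6.23 to 9.25 in CD24Mid and 17.6 to 24.6 in CD24Neg (exact p = 0.029, n = 4 each). Lymphocytes carry immunoproteasomes, and T and NK lymphocyte markers summed to 3.56 to 12.2 CPM in CD24Mid and 27.1 to 499 CPM in CD24Neg, with all 6 higher in CD24Neg, while B and plasma cell markers summed to 393 to 1008 CPM in CD24Mid and 21.9 to 53.6 CPM in CD24Neg. The sort had removed cells positive for CD45, which lymphocytes carry. In CD24Neg replicates 2, 4, 6 and 8, Psmb8 stood at 172, 133, 182 and 201 CPM. T and NK markers in the same libraries summed to 499, 27.1, 75.5 and 354 CPM. The part of these cells in the difference was not tested.

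Other genes of the ubiquitin pathway, from lists of partners of the proteasome, did not share a direction. Of 39 such genes, the 4 immunoproteasome genes included, 9 were higher in CD24Mid, 17 in CD24Neg and 13 did not pass, beside 35.5% and 34.3% of all genes, with a median log2 fold change of -0.16. On unscaled totals the counts were 30 and 1, beside 69.8% and 12.9% of all genes. Of 13 cap subunits and partners named otherwise, 6 were higher in CD24Mid and 3 lower (all genes 35.5% and 34.3%), while unscaled totals gave 12 and 0 (all genes 69.8% and 12.9%). Ubqln2, a shuttle that carries ubiquitinated proteins to the cap, had the highest fold change, with 25.9, 29.6, 32.1 and 32.5 CPM in CD24Mid and 13.4, 14.4, 16.0 and 15.5 CPM in CD24Neg (log2 fold change 1.02 ± 0.12 SE, edgeR adjusted p = 1.63e-05), and Pomp, given above, the lowest. The cap-bound deubiquitinase Usp14, picked out once its value was known, reached 1.86-fold in CD24Mid over CD24Neg (65.8 ± 6.14 against 35.4 ± 2.87 CPM, SD, n = 4 each, edgeR adjusted p = 2.11e-05).

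Of the genes for ubiquitin and its activating enzymes, Ubb, picked out once its value was known, was higher in CD24Neg (665 ± 98.7 CPM in CD24Mid, against 1106 ± 83.2 CPM in CD24Neg, SD, n = 4 each, edgeR adjusted p = 0.00081), and its log2 fold change turned to 0.20 on unscaled totals. Estimated reads of Ubb were 1.52 times the unique reads, so its counts are uncertain. Rps27a, a ubiquitin fused to a ribosomal protein, had 21.0, 23.6, 19.3 and 19.1 CPM in CD24Mid and 11.7, 8.22, 7.04 and 9.49 CPM in CD24Neg (log2 fold change 1.20 ± 0.16 SE, edgeR adjusted p = 5.83e-05), and its unique counts are uncertain, since estimated reads were 12.1 times as many. In the list of the extraction ATPase Vcp and its cofactors, 2 of 10 were higher in CD24Mid and 3 lower, near the 34.3% of all genes that were lower and under the 35.5% that were higher, while unscaled totals gave 10 and 0 (all genes 69.8% and 12.9%). The extremes were Ubxn7, at 34.4 ± 4.73 CPM in the CD24Mid libraries, against 26.8 ± 4.39 CPM for CD24Neg (edgeR adjusted p = 0.048, lost with DESeq2 at 0.060), and Ubxn6, at 46.3 ± 6.23 CPM in the CD24Mid libraries, against 72.5 ± 4.70 CPM for CD24Neg (SD, n = 4 each, edgeR adjusted p = 0.00045, turning to a log2 fold change of 0.29 on unscaled totals).

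Regulators that read the antioxidant response core were higher in CD24Neg, with TMM scaling, except Nfe2l1. Of 8 genes for regulation of proteasome transcription, 0 were higher in CD24Mid and 6 in CD24Neg (all genes 35.5% and 34.3%), but 5 and 0 on unscaled totals (all genes 69.8% and 12.9%). Nfe2l1, the factor that restores proteasome subunits when the proteasome is inhibited, had 120, 101, 114 and 112 CPM in CD24Mid and 108, 103, 102 and 114 CPM in CD24Neg (log2 fold change 0.07 ± 0.09 SE, edgeR adjusted p = 0.53). Nfe2l2, the oxidative stress factor, had 195, 169, 214 and 195 CPM in CD24Mid and 360, 429, 520 and 482 CPM in CD24Neg (log2 fold change -1.21 ± 0.14 SE, edgeR adjusted p = 1.65e-05), and on unscaled totals its log2 fold change was -0.27 (adjusted p = 0.097). The small Maf partner Mafk, likewise picked out, lay 2.13-fold higher in CD24Neg (46.2 ± 8.05 CPM in CD24Mid, against 98.4 ± 5.22 CPM in CD24Neg, SD, n = 4 each, edgeR adjusted p = 2.68e-05, or 0.31 on unscaled totals).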

How the data were processed

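RNA from flow-sorted small intestinal epithelium was made into TruSeq libraries, per the labels' protocols. Reads were aligned with Bowtie 0.12.8 to NCBIM37 (mouse), as the submitters' processing notes record. The sources used here name no annotation release, strand setting or batch. The deposited tables give, per the file headers, raw counts of fragments unique to 1 gene and a log estimate of expression per length. The estimate shares out ambiguous fragments. Also given is the effective length that the authors' program used. The natural base and the scale of the log values were inferred by turning them back into counts.

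Counts were tested with edgeR 4.0.16 (robust quasi-likelihood test, TMM, filterByExpr, Benjamini-Hochberg adjustment over 12840 genes, threshold 0.05), after a test on simulated data. Levels are the exponentials of the deposited log values, read as natural logs. Alternatives were DESeq2 1.42.0, limma 3.58.1 on the log estimates, other scalings, no filter, estimated counts, and leaving out each library. Of the within-library proportions, 3 of immunoproteasome genes were compared with exact permutation tests (SciPy 1.17.1), and the others are given without a test. Gene IDs with a symbol numbered 32897 of 37620. Psmb9 and Paaf1 were not analysed here, and the values of 1 further gene that the naming rule chose are not reported here. Of the columns with values per sample, all were mapped. Libraries held 11340782 to 18928233 unique reads, and the floors for genes without reads cover counting error only.

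Members and lists were chosen with earlier results of these data known. Values in every library were given for the catalytic subunits, for the highest and lowest fold change in each subcomplex and list, and for chaperones, activators, inhibitors and untested rows. Promoters came from RefSeq (GRCm38.p6), a later build than that of the counts, and were matched by symbol.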

Additional observations from a re-analysis of the deposited data

Results flagged for a closer look

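In 3 of 124 groups of 4 libraries checked, 1 library stood apart from the other 3 by more than the 95% critical value of Dixon's test for 4 values, which chance alone passes in about 1 in 20 groups. All 3 were CD24Neg replicate 2 in normalised counts. Psma2 stood at 96.6 CPM there, with the other CD24Neg libraries between 80.6 and 82.8 CPM. Psma6 stood at 108 CPM, with the others between 83.7 and 87.4 CPM, and Psmd9 at 21.5 CPM, with the others between 16.6 and 16.7 CPM. None of the 3 genes was called between CD24Mid and CD24Neg by edgeR (adjusted p = 0.30 for Psma2, 0.50 for Psma6 and 0.66 for Psmd9).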

How the results depend on the processing

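Scaling between libraries moved the results most. The rows higher in CD24Mid and in CD24Neg numbered 29 and 0 with upper-quartile scaling, 39 and 0 on totals without mitochondrial genes, 42 and 0 on unscaled totals and 42 and 0 with limma on the log estimates, and their median log2 fold change was 0.42, 0.71, 1.14 and 1.12. Over all genes the counts were 7061 and 2580 without mitochondrial genes, 8959 and 1659 unscaled and 8545 and 1634 with limma, and over the pathway genes 14 and 11 with upper quartile, 24 and 5 without mitochondrial genes, 30 and 1 unscaled and 29 and 0 with limma. DESeq2 (18 and 1), no filter (20 and 1), estimated counts (18 and 1) and the number split as a term (21 and 1) stayed within 1.5 times of 17 and 1. Leaving out 1 library gave 13 to 20 rows higher in CD24Mid and 1 in CD24Neg, with a median of 0.13 to 0.28.

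Fold changes changed sign, most of them small. Exceptions were Ubb (-0.73 with TMM), Pomp (-0.70), Ubxn6 (-0.65), Psme1 (-0.46) and Psmd4 (-0.41), all called higher in CD24Neg with TMM. A change of scaling shifts every gene alike. The limma fit used the log estimates per mapped fragment, without TMM scaling. Over all genes its median log2 fold change was 0.93, against 0.96 on unscaled totals. The cause of the other changes of sign was not tested. With upper-quartile scaling the log2 fold changes became 0.20 for the activators and inhibitors (median), 0.20 for Psma4, 0.19 for Psmb4, 0.036 for Psmb6, 0.18 for Psmc4, 0.13 for Psmc5, 0.085 for Psmd10, 0.052 for Psmd13, 0.063 for Psmd8, 0.13 for Psme4 and 0.20 for Psmf1. Without mitochondrial genes they were 0.49 (activators and inhibitors), 0.48 (Psma4), 0.48 (Psmb4), 0.32 (Psmb6), 0.47 (Psmc4), 0.41 (Psmc5), 0.37 (Psmd10), 0.34 (Psmd13), 0.10 (Psmd4), 0.35 (Psmd8), 0.041 (Psme1), 0.43 (Psme4) and 0.49 (Psmf1). On unscaled totals they were 0.92 (activators and inhibitors), 0.24 (Pomp), 0.92 (Psma4), 0.91 (Psmb4), 0.76 (Psmb6), 0.90 (Psmc4), 0.85 (Psmc5), 0.81 (Psmd10), 0.77 (Psmd13), 0.53 (Psmd4), 0.78 (Psmd8), 0.48 (Psme1), 0.85 (Psme4), 0.92 (Psmf1), 0.20 (Ubb) and 0.29 (Ubxn6). With limma they were 0.81 (activators and inhibitors), 0.21 (Pomp), 0.89 (Psma4), 0.90 (Psmb4), 0.73 (Psmb6), 0.81 (Psmc4), 0.84 (Psmc5), 0.80 (Psmd10), 0.83 (Psmd13), 0.50 (Psmd4), 0.76 (Psmd8), 0.50 (Psme1), 0.72 (Psme4), 0.81 (Psmf1), 0.26 (Ubb) and 0.22 (Ubxn6). Without the filter they were 0.076 (activators and inhibitors), 0.075 (Psma4), 0.072 (Psmb4), 0.062 (Psmc4), 0.0079 (Psmc5), 0.011 (Psme4) and 0.076 (Psmf1), and with estimated counts 0.020 (activators and inhibitors), -0.0029 (Psma3) and 0.020 (Psmf1). Leaving out 1 library gave ranges of -0.033 to 0.095 (activators and inhibitors), -0.088 to 0.046 (Psma4), -0.048 to 0.11 (Psmb1), -0.11 to 0.13 (Psmb4), -0.0029 to 0.11 (Psmc1), -0.098 to 0.034 (Psmc4), -0.21 to 0.013 (Psmd10), -0.20 to 0.029 (Psme4) and -0.094 to 0.095 (Psmf1). No paired analysis was possible because the groups share no replicate number, and no label pairs a CD24Mid library with the CD24Neg library of the next number.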
